A study of Mus musculus with 16 samples.

Results

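The miRNAs of the imprinted Dlk1-Dio3 region of chromosome 12 were examined in kidney cortex of ageing mice. They were taken by name as any arm of 47 precursors listed for the region, from miRNA-770 in Meg3 to the miRNAs of Mirg, which gave 92 of the 1881 mouse miRNAs on the array. The measured RNA came from male mice of 2 strains, SAMR1, the senescence-accelerated resistant mouse raised as the control strain, and SAMP1, a senescence-accelerated prone strain. Mice of each strain were taken at 10 weeks (SAMR1-10wk and SAMP1-10wk) and at 50 weeks (SAMR1-50wk and SAMP1-50wk) with no treatment named in the labels, 4 mice and 4 arrays in each group. Total RNA from cortex was labelled with Cy3 and hybridized to 1-colour arrays, which give every miRNA a total gene signal, the summed intensity of its probes above background, and a detection call. All 10-week arrays lay on 1 slide and all 50-week arrays on the other, and the effects of age and of slide cannot be told apart. The 6 kidney epithelial miRNAs listed to check the tissue, among them miRNA-192-5p and miRNA-204-5p, were detected on all 16 arrays.

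In the Dlk1-Dio3 region the chromosomes of the 2 parents are read differently. Dlk1, Rtl1 and Dio3, which encode proteins, are expressed from the paternal chromosome, and the noncoding RNAs Meg3, Rian and Mirg with the miRNAs are expressed from the maternal one. The miRNAs are known for their abundance in embryo, placenta and brain and are generally low in other adult tissues. A miRNA recognizes its target mRNAs mainly through its seed, bases 2 to 8 from the 5′ end.

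In all, 5 of 92 members were detected on at least 1 array, and all of them were 3p arms. The mature sequences of 4 of them, as RefSeq gives them for GRCm38.p6, are shown with the seed in capitals because the results turn on them. The fifth was miRNA-487b-3p, which is named only.
miRNA-494-3p: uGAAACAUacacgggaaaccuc
miRNA-370-3p: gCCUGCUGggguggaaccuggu
miRNA-668-3p: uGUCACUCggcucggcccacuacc
miRNA-770-3p: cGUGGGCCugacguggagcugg
All 4 lie on the plus strand, miRNA-770-3p at chr12:109563744-109563765, within Meg3, miRNA-370-3p at chr12:109618305-109618326, within Rian, miRNA-494-3p at chr12:109715367-109715388 and miRNA-668-3p at chr12:109734774-109734797, both between Rian and Mirg. None of these seeds was shared with another member or with any of the 1679 mouse miRNAs that had a mature sequence. Among the 88 members with a sequence there were 84 seeds, and only 4 seeds were held by 2 members each, none of them detected. One of those was GGUUGUC, shared by miRNA-494-5p and miRNA-410-5p.

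The opposite arms of the 3 members detected on all arrays are shown because they come from the same precursors and were detected on no array.
miRNA-494-5p: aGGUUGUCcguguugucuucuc
miRNA-370-5p: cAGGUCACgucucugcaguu
miRNA-487b-5p: uGGUUAUCccuguccucuucg
Also on no array were miRNA-127-3p, miRNA-434-3p and miRNA-136-5p, whose precursors lie antisense to Rtl1 and are known to direct cleavage of its mRNA, and the listed members within Mirg, such as miRNA-410-3p. The first 3 are printed as the members best known for a target within the region itself.
miRNA-127-3p: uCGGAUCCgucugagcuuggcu
miRNA-434-3p: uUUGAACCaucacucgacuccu
miRNA-136-5p: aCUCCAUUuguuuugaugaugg

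Most of the cluster was not detected in kidney cortex. Of the 92 members, 5 (5.43%) were detected on at least 1 array, while 469 of all 1881 miRNAs (24.9%) were. Only 3 members (3.26%) were detected on all 16 arrays, beside 322 of all miRNAs (17.1%). Each array detected 3 or 4 members among 352 to 445 miRNAs in all. miRNA-370-3p, miRNA-487b-3p and miRNA-494-3p were detected in 4 of 4 mice of every group, and no group added a member that was detected in all its mice.

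By position, the 2 members within Meg3 included 1 detected miRNA, miRNA-770-3p. None of the 20 members from the 10 precursors across Rtl1 was detected, nor any of the 17 members from the 9 precursors within Mirg. Of the 4 members within Rian, miRNA-370-3p was detected. Of the 49 members from 25 precursors between Rian and Mirg, 3 were detected, miRNA-494-3p, miRNA-487b-3p and miRNA-668-3p. The detected members therefore lay in 3 stretches of the region and were not a run of neighbouring precursors. The one within Meg3 was called on 1 array only, and those on all 16 arrays lay within Rian or between Rian and Mirg. The list bounds this layout, since miRNA-3072-5p, within Mirg but outside the list, was detected on all 16 arrays.

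**Figure D1:**
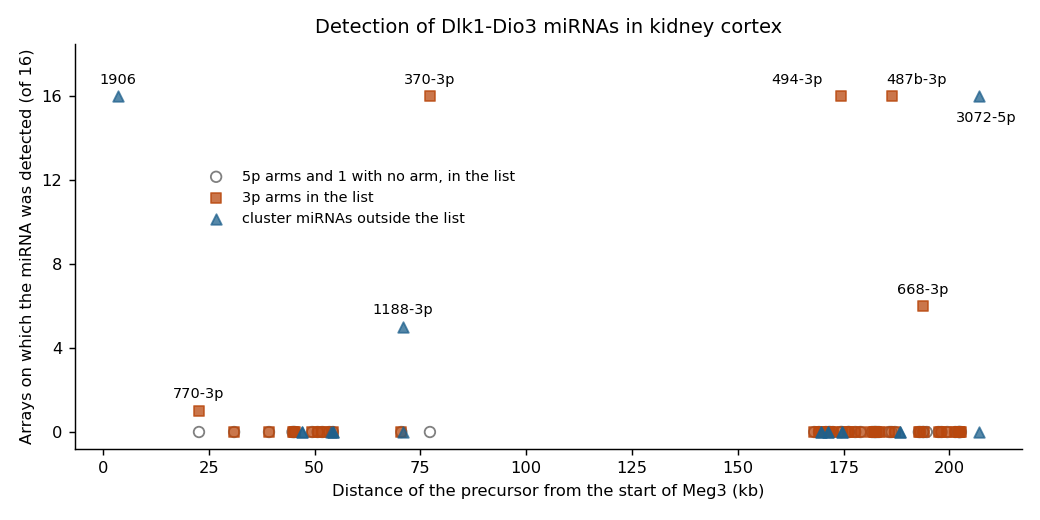
Number of arrays, of 16, on which each miRNA was detected, against the distance of its precursor from the start of Meg3 in kb. Squares are 3p arms and open circles 5p arms (and 1 miRNA with no arm) of the 92 members, and triangles are miRNAs of the region outside the list. The 3 members at 16 arrays, miRNA-668-3p at 6 and miRNA-770-3p at 1 stand above 87 members at 0.

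Most members not detected were at or below the level of empty spots. Each miRNA has 30 spots per array, and the undetected members had 36 of 41760 spots flagged well above background over the 16 arrays (0.0862%, exact 95% interval 0.0604 to 0.119%). Negative control spots had 29 of 16000 (0.181%, 0.121 to 0.260%), and all miRNA spots together had 13.7%. These intervals cover counting error only, since spots of 1 array share its RNA. The mean background-subtracted signal per spot of an undetected member lay between -2.73 and 2.75, and the median negative control spot of an array between 1.18 and 2.23. Of the 87 undetected members, 73 lay below the lowest of these control medians and 9 within their range, and 5 lay above it, miRNA-136-5p, miRNA-329-3p, miRNA-337-3p, miRNA-382-3p and miRNA-409-3p. A call of detected coincided in 1472 of 1472 cases, 92 members on 16 arrays, with a probe whose signal was over 3 times its own error. The highest such ratio on any array ranged from -0.45 to 2.03 over the 87 undetected members, with a median of 0.56, and the member nearest to a call was miRNA-136-5p. Detection at this sensitivity does not show that the other miRNAs were absent.

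The detected members had mature sequences with GC contents of 45.5% for miRNA-494-3p, 68.2% for miRNA-370-3p, 66.7% for miRNA-668-3p and 72.7% for miRNA-770-3p. The 84 undetected members with a sequence ranged from 23.8 to 76.2% with a median of 50.0%. For miRNA-370-3p, 94.0% of the undetected members had a lower GC content, whereas for miRNA-494-3p only 28.6% did. Among all other miRNAs on the array the medians of detected and undetected sequences were 52.2% and 52.4%. These are descriptions of 4 sequences, and their part in detection was not tested.

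The 3 members on all arrays were measured on different footings. All 480 spots of miRNA-494-3p were well above background, 158 of 480 (32.9%) of miRNA-370-3p and 141 of 480 (29.4%) of miRNA-487b-3p. The total gene signal, unscaled, ranged over the 16 arrays from 465 to 914 for miRNA-494-3p, from 4.80 to 8.36 for miRNA-370-3p and from 2.82 to 5.84 for miRNA-487b-3p. Its error as the scanner software gives it had a median of 7.42%, 17.8% and 21.4% of the signal, respectively. Intensities of different probes were not compared as levels. The lowest signal of any detected miRNA on an array was 0.895 to 1.50, so that miRNA-370-3p and miRNA-487b-3p lay near the limit of detection.

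Each miRNA-494-3p and miRNA-370-3p signal was the sum of a pair of probes of 14 and 15 bases, which pair with bases 9 to 22 and 8 to 22 of the miRNA and leave most of the seed free. The longer ones were these.
miRNA-494-3p probe: gaggtttcccgtgta
miRNA-370-3p probe: accaggttccacccc
No other mouse miRNA of 1678 matched either probe with fewer than 3 mismatches. For miRNA-487b-3p the probes of 17 and 18 bases are shown because its signal was not built the same way on every array.
miRNA-487b-3p shorter probe: aagtggatgaccctgta
miRNA-487b-3p longer probe: aagtggatgaccctgtac
On 15 arrays its total gene signal was that of the longer probe alone, and on 1 array, SAMP1-10wk replicate 6, both probes were added, which gave the highest value of all, 5.84. The nearest other miRNA to the shorter probe was miRNA-376b-3p, a member detected on no array, with 3 mismatches.

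The first comparison asked whether the strains differ. Signals were divided by the array's 90th percentile over all 1881 miRNAs and taken as log2, so that 0 is the signal of that percentile. miRNA-370-3p was at -1.09, -0.67, -0.43 and -0.49 in SAMR1-10wk mice and at -1.09, -0.66, -0.49 and -0.69 in SAMR1-50wk mice. In SAMP1-10wk mice it was at -0.84, -0.88, -1.21 and -1.10, and in SAMP1-50wk mice at -1.23, -1.60, -1.18 and -0.84. The SAMP1 mice were lower, with overlap through 1 SAMR1 mouse of each age. The mean was -0.70 ± 0.26 in SAMR1 and -1.11 ± 0.26 in SAMP1 (SD, n = 8), a difference of -0.41 on the log2 scale (SE 0.13), or 1.33-fold lower (limma, adjusted p = 0.0270 over 381 miRNAs). An exact two-sided permutation test of the 8 against 8 arrays gave p = 0.00870.

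miRNA-494-3p was at 5.56, 5.82, 6.05 and 5.85 in SAMR1-10wk mice and at 5.46, 5.99, 6.17 and 5.81 in SAMR1-50wk mice. In SAMP1-10wk mice the values were 5.61, 5.67, 5.36 and 5.48, and in SAMP1-50wk mice 5.54, 5.01, 5.72 and 5.63. Again the SAMP1 mice were lower with overlap, and SAMR1-10wk replicate 1 and SAMR1-50wk replicate 2 were the low SAMR1 mice, as they were for miRNA-370-3p. The means were 5.84 ± 0.24 in SAMR1 and 5.50 ± 0.23 in SAMP1 (SD, n = 8), a difference of -0.34 (SE 0.12), 1.26-fold lower (limma, adjusted p = 0.0488, exact two-sided permutation p = 0.0110). Both probes of miRNA-494-3p gave a like difference, -0.33 and -0.35, as did both of miRNA-370-3p, -0.46 and -0.36.

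miRNA-487b-3p did not pass the test for strain, with means of -1.52 ± 0.11 in SAMR1 and -1.71 ± 0.42 in SAMP1 (SD, n = 8). Of the 3 members tested, 2 were thus lower in SAMP1 and none higher. Over all 381 miRNAs tested, 31.2% were called in this comparison and 23.9% were called lower, and the median difference of all was -0.07. Against that background 3 members are too few for a statement about the cluster. Neither of the 2 called members passed a fold change over 2, which 2.10% of all did. A lower signal in bulk tissue can come from fewer cells that hold the miRNA or from less of it per cell, which cannot be told apart here.

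**Figure D2:**
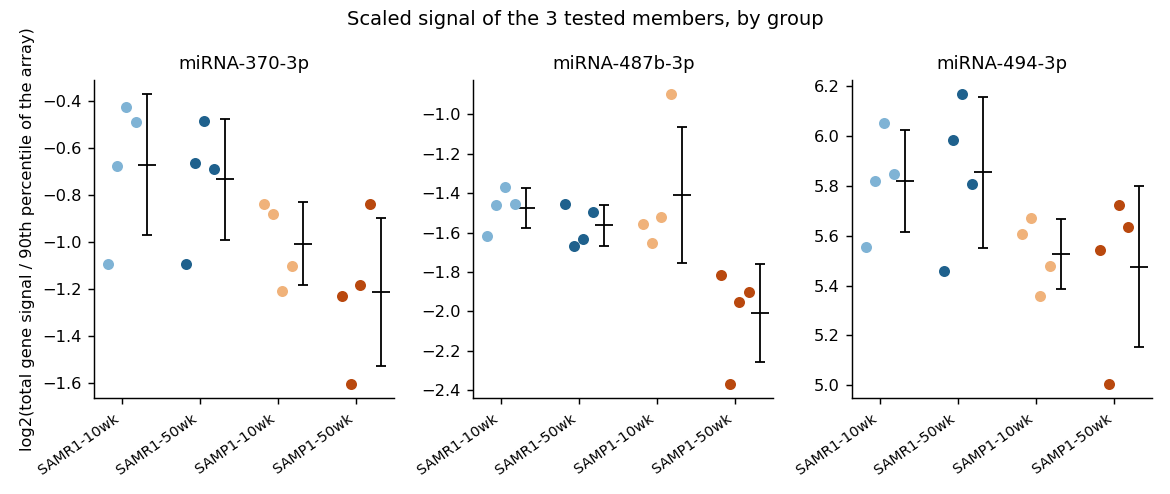
Scaled signal, log2 of total gene signal over the array's 90th percentile, of the 3 tested members in each mouse (points) with the group mean ± SD (black, n = 4). SAMP1 points of miRNA-370-3p and miRNA-494-3p lie lower than most SAMR1 points, and the SAMP1-50wk points of miRNA-487b-3p lie below those of every other group.

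The strain difference depended on how arrays were scaled. The 90th percentile that every signal was divided by was 8.76 to 11.0 in SAMR1 mice and 10.9 to 22.7 in SAMP1 mice, highest in SAMP1-50wk replicate 2. Without scaling, miRNA-370-3p was 0.12 higher in SAMP1 (SE 0.13, limma adjusted p = 0.403) and miRNA-494-3p 0.19 higher (SE 0.13, adjusted p = 0.198), while the median of all 381 tested miRNAs was 0.45 higher. The distance from that median was -0.33 for miRNA-370-3p and -0.26 for miRNA-494-3p with or without scaling, by construction, since 1 divisor per array shifts every miRNA alike. Unscaled miRNA-487b-3p was 0.33 higher in SAMP1 (SE 0.11, limma adjusted p = 0.0195), also less than the median of all. With the 90th percentile over miRNAs detected on all arrays, miRNA-370-3p was at -0.39 and miRNA-494-3p at -0.31 (limma adjusted p = 0.0616 and 0.118). With quantile normalization they were at -0.44 and -0.26 (adjusted p = 0.0505 and 0.164). With the 75th percentile over these miRNAs or the authors' values, miRNA-370-3p alone stayed called. The call for miRNA-494-3p was lost when 1 array was left out in 12 of 16 cases (adjusted p between 0.0165 and 0.0976 over the 16), and that for miRNA-370-3p in 4 of 16 (0.0105 to 0.0563). Within the 10-week slide alone the difference was -0.34 for miRNA-370-3p and -0.29 for miRNA-494-3p, and within the 50-week slide alone -0.48 and -0.38, with neither called on either slide (limma adjusted p between 0.0883 and 0.192). Without SAMP1-50wk replicate 2 the differences were -0.26 for miRNA-494-3p (adjusted p = 0.0779) and -0.34 for miRNA-370-3p (adjusted p = 0.0483).

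**Figure D3:**
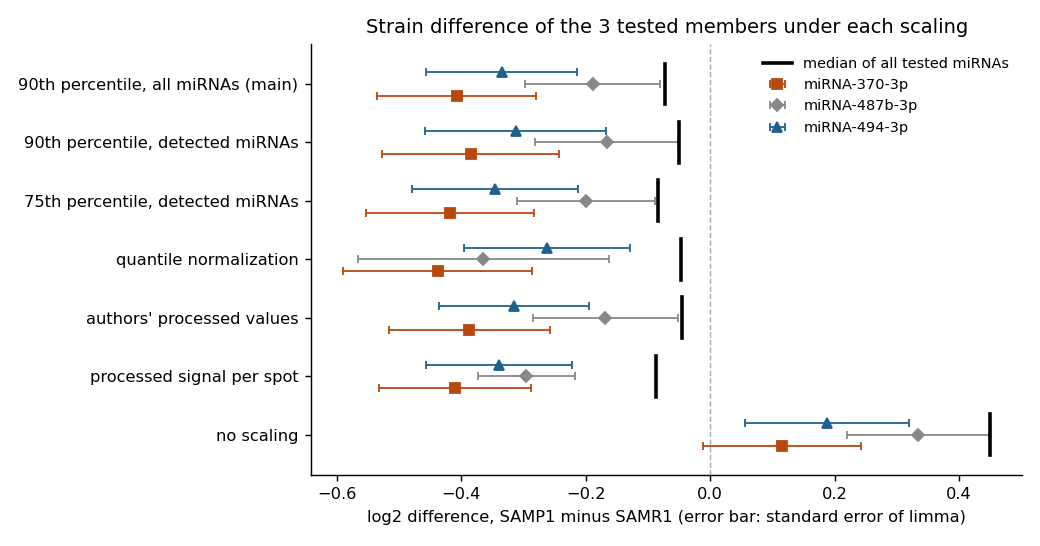
Difference of SAMP1 minus SAMR1 on the log2 scale for the 3 tested members (points, with the standard error from limma) under 7 ways of scaling, with the median over all tested miRNAs as a black bar. The points of all 3 members lie left of the bar in each row, and they lie right of 0 only in the row without scaling, where the bar is at 0.45.

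Some lists of miRNAs of other cell types held calls on the same arrays. The background for these counts is that of the 381 miRNAs tested 28 were called higher and 91 lower in SAMP1, 18 higher and 26 lower at 50 weeks, and 7 with a higher and 95 with a lower change with age in SAMP1 than in SAMR1. The last of these directions rests on scaling, since the median interaction of all was -0.25, but -0.0064 with the 90th percentile over detected miRNAs and 0.27 without scaling. Of the 6 leukocyte miRNAs, all detected on every array, 4 were called higher in SAMP1 and none lower, 3 were called higher at 50 weeks and 3 had a higher change with age in SAMP1 than in SAMR1. Their summed scaled signal was 14.7 to 18.8 in SAMR1-10wk, 15.6 to 18.3 in SAMR1-50wk, 15.5 to 20.2 in SAMP1-10wk and 29.3 to 45.3 in SAMP1-50wk. The summed signal of 4 erythrocyte miRNAs varied within groups, from 11.9 to 152 in SAMR1-10wk, 3.21 to 9.05 in SAMR1-50wk, 4.99 to 65.5 in SAMP1-10wk and 26.8 to 164 in SAMP1-50wk. Of the 2 that were tested none was called for strain or age, and both had a higher change with age in SAMP1. Of 6 neuronal miRNAs, for a cell type in which the cluster is known to be active, 3 were detected on all arrays and miRNA-129-5p and miRNA-137-3p on none. Their summed signal was 2.22 to 2.55, 2.38 to 3.06, 2.81 to 3.05 and 2.31 to 2.53 in the same order of groups, and of the 3 tested none was called for strain, 1 was lower at 50 weeks and 3 had a lower change with age in SAMP1. Of 9 mesenchymal miRNAs 6 were detected on all arrays and 3 on none. Among these 6, 1 was called higher and 2 lower in SAMP1, 3 higher and 2 lower at 50 weeks and none in the interaction, and the summed signal was 34.1 to 38.0, 36.2 to 43.3, 36.7 to 42.3 and 36.2 to 46.2. Of 6 miRNAs of kidney epithelium, all detected on every array, 2 were called higher in SAMP1, none with age, and 5 had a lower change with age in SAMP1. The part of these cells in the members' differences was not tested.

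The second comparison asked whether signals differ with age. None of the 3 members was called, where 11.5% of all tested miRNAs were. The lowest p belonged to miRNA-487b-3p. It was at -1.62, -1.46, -1.37 and -1.46 in SAMR1-10wk mice and at -1.45, -1.67, -1.63 and -1.50 in SAMR1-50wk mice. In SAMP1-10wk mice it was at -1.56, -1.66, -1.52 and -0.90, and in SAMP1-50wk mice at -1.82, -2.37, -1.95 and -1.90. The 50-week mice of SAMP1 were all lower than the other 12 mice, whereas the 2 ages of SAMR1 overlapped. Over both strains the means were -1.44 ± 0.24 at 10 weeks and -1.79 ± 0.30 at 50 weeks (SD, n = 8), a difference of -0.34 (SE 0.11), 1.27-fold (limma, adjusted p = 0.0551, exact two-sided permutation p = 0.0135). For miRNA-370-3p the means were -0.84 ± 0.29 and -0.97 ± 0.37, and for miRNA-494-3p 5.67 ± 0.23 and 5.67 ± 0.35.

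The high value of SAMP1-10wk replicate 6 was the one array on which both miRNA-487b-3p probes were summed. With the longer probe alone on every array, a choice made after the data had been seen, the difference with age was -0.27 (SE 0.07, limma adjusted p = 0.0297) and that with strain was also -0.27 (adjusted p = 0.0149). miRNA-487b-3p was then called in both comparisons. The shorter probe had only 2 of 240 spots well above background, too few for its differences between groups to be read. This miRNA had the largest error of the 3, and its call for age stood on either side of the threshold according to the probes counted.

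Whether the change with age differs between strains was tested as an interaction. None of the 3 members was called, beside 26.8% of all tested miRNAs. miRNA-487b-3p had the lowest p, with a change of -0.09 in SAMR1 and -0.60 in SAMP1, which differ by -0.51 (SE 0.22, limma adjusted p = 0.0920). Without SAMP1-10wk replicate 6 this was -0.34, with the 90th percentile over detected miRNAs -0.27, and without scaling 0.0045. Over all differences between the 4 groups, 1 of 3 members was called, miRNA-487b-3p, where 47.8% of all were. Its highest and lowest group means, -1.41 in SAMP1-10wk and -2.01 in SAMP1-50wk, lay 0.60 apart (limma, adjusted p = 0.0183), and 0.48 apart without SAMP1-50wk replicate 2, when the call was lost (adjusted p = 0.0608). The call was also lost without scaling, with the 90th percentile over detected miRNAs and with quantile normalization. The place of SAMP1-10wk as the highest group rests on its replicate 6. Without that array, or with the longer probe alone on every array, SAMR1-10wk was highest, at -1.48, and lay 0.53 above SAMP1-50wk.

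Within each pair of groups the members were called at 50 weeks and in SAMP1. At 10 weeks no member was called between strains (background 4.46%). At 50 weeks 2 of 3 were lower in SAMP1 (background 47.2% called, 40.4% called lower). miRNA-487b-3p differed by -0.45 (SE 0.15, limma adjusted p = 0.0295), with no overlap between 4 and 4 mice, which is the smallest exact two-sided permutation p the design allows, 0.0286. miRNA-370-3p differed by -0.48 (SE 0.18, limma adjusted p = 0.0421, exact permutation p = 0.0571). Without SAMP1-50wk replicate 2 neither was called, at -0.33 and -0.35, and over all 16 fits with 1 array left out miRNA-370-3p lost its call in 8 and miRNA-487b-3p in 3. Without scaling both directions turned, to 0.34 for miRNA-487b-3p (adjusted p = 0.0702) and 0.30 for miRNA-370-3p (adjusted p = 0.130), higher in SAMP1. Neither was called with the 90th or 75th percentile over detected miRNAs, quantile normalization or the authors' values, where both stayed below 0 (adjusted p between 0.0703 and 0.212). With age, no member was called in SAMR1 (background 9.97%), and miRNA-487b-3p alone was lower in SAMP1 (background 28.3% called, 22.3% called lower), by -0.60 (SE 0.15, limma adjusted p = 0.0106) with no overlap. That call held with each array left out in turn, the difference then lying between -0.68 and -0.43. The call was lost without scaling (-0.18, adjusted p = 0.462), with the 90th percentile taken over detected miRNAs (-0.46, adjusted p = 0.0699) and with quantile normalization (-0.77, adjusted p = 0.0672). Since these pairs share groups, the calls for miRNA-487b-3p at 50 weeks and in SAMP1 rest on the same 4 SAMP1-50wk arrays.

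miRNA-370-3p and miRNA-494-3p, which come from different stretches of the region, moved together from mouse to mouse. The log2 difference between them within an array, which a single divisor per array leaves as it is but quantile normalization does not, ranged over a factor of 1.48 in the 16 mice with an SD of 0.13. Among all 51681 pairs of the 322 miRNAs detected on every array the median SD was 0.31, and 7.49% of pairs had a smaller one. miRNA-487b-3p varied against miRNA-494-3p with an SD of 0.35 and against miRNA-370-3p with an SD of 0.34, near that median. SAMP1-10wk replicate 6, the array on which both miRNA-487b-3p probes were summed, gave the most extreme difference in each of these pairs. The unscaled signal alone had an SD of 0.25 for miRNA-370-3p, 0.27 for miRNA-487b-3p and 0.29 for miRNA-494-3p. All were below the median of 0.36 over the 322 miRNAs. miRNA-370-3p and miRNA-494-3p were both low in SAMR1-10wk replicate 1, SAMR1-50wk replicate 2 and SAMP1-10wk replicates 5 and 6, and high in SAMP1-10wk replicate 4 and SAMP1-50wk replicates 1, 2 and 4. They lay apart in SAMP1-50wk replicate 4, at 0.25 for miRNA-370-3p and 0.58 for miRNA-494-3p from their means over the arrays, and in replicate 1 of that group, at 0.18 and 0.37, as well as in SAMR1-10wk replicate 7, at 0.18 and -0.05. The difference between them did not pass a test for strain (-0.07, exact two-sided permutation p = 0.306) or age (-0.13, p = 0.0539). The arrays share depth and labelling, so this is a description, and no test was made of the likeness itself.

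**Figure D4:**
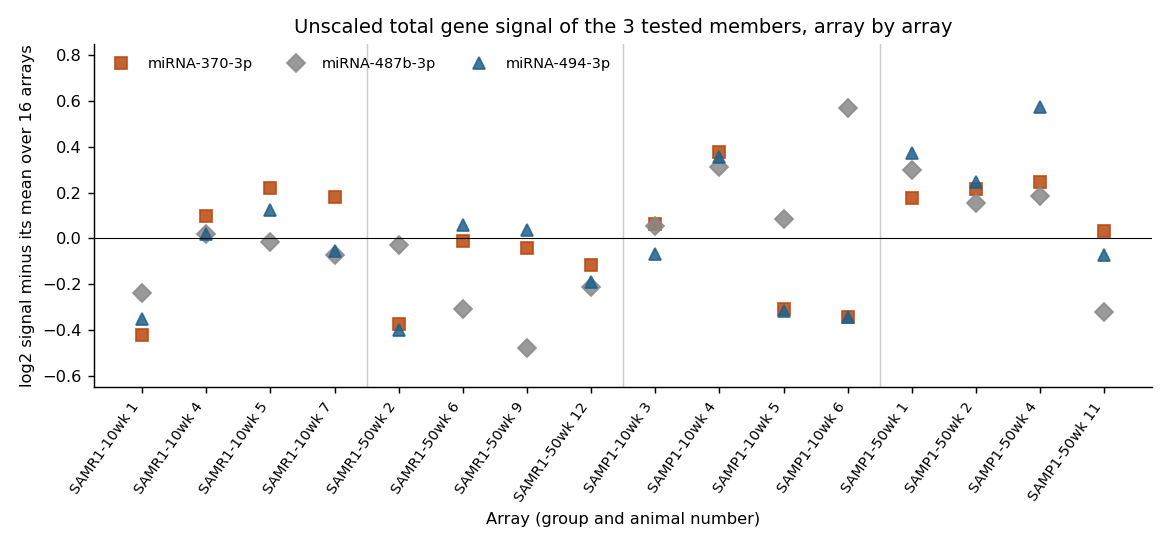
Unscaled log2 total gene signal of the 3 tested members minus each one's mean over 16 arrays, array by array. Squares (miRNA-370-3p) and triangles (miRNA-494-3p) lie close together on most arrays, with the 4 low arrays near -0.3 to -0.4, and diamonds (miRNA-487b-3p) often lie apart, highest at 0.57 in SAMP1-10wk replicate 6.

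miRNA-668-3p was detected on 6 arrays, 2 of SAMR1-10wk, 1 of SAMR1-50wk, 3 of SAMP1-10wk and 0 of SAMP1-50wk. Its unscaled total gene signal was 1.26 and 2.98 in the 2 SAMR1-10wk mice, 1.27 in the SAMR1-50wk mouse and 1.56, 1.40 and 1.07 in the 3 SAMP1-10wk mice. Whether SAMP1-50wk mice had a lower signal depended on scaling. Unscaled, its probe of 10 bases read 1.38, 1.49, 1.28 and 1.06 there, within the range of 0.987 to 1.56 on the 6 arrays that detected it. The 0.987 came from SAMP1-10wk replicate 6, where the call rested on the probe of 11 bases. On the other detecting arrays the probe of 10 bases read 1.26 to 1.56, above the 1.06 of SAMP1-50wk replicate 11. Divided by the array's 90th percentile, the same probe was at 0.0659 to 0.0906 in SAMP1-50wk mice, below 0.0998 to 0.126 in SAMR1-10wk, 0.0952 to 0.126 in SAMR1-50wk and 0.0908 to 0.117 in SAMP1-10wk mice, although the highest SAMP1-50wk and the lowest SAMP1-10wk values almost met. The scaled probe of 11 bases was likewise lowest there, at 0.0554 to 0.0844 against 0.0874 or more in the other groups, whereas the scaled probes of 12 and 13 bases overlapped between the groups. The highest ratio of probe signal to error was 2.49 to 2.94 on the SAMP1-50wk arrays, just under the 3 a call needs, and 2.61 to 3.82 on the SAMR1-10wk arrays. Only 10 of 480 spots were well above background. Its shortest probe, ggtagtgggc, pairs with bases 15 to 24, and miRNA-3552 would match it with 1 mismatch.

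**Figure D5:**
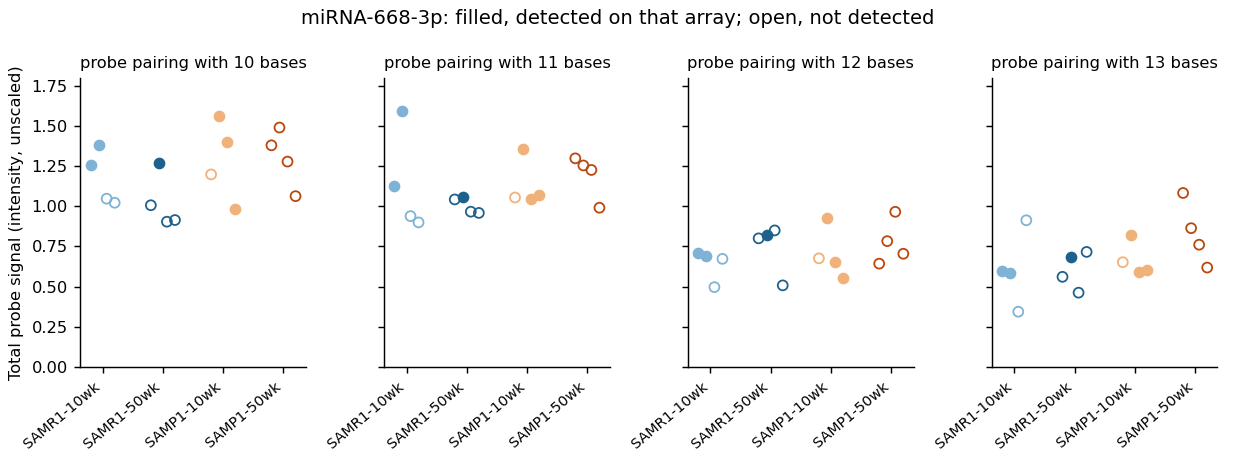
Unscaled total probe signal of the 4 probes of miRNA-668-3p in each mouse, one panel per length of the pairing stretch. Filled points are arrays on which the miRNA was called detected and open points arrays on which it was not, and the open SAMP1-50wk points of the probe of 10 bases lie among the filled ones.

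miRNA-770-3p was detected on 1 array, SAMR1-50wk replicate 12, with a signal of 0.895, which was also the lowest of any detected miRNA. The call came from the probe of 12 bases, at 3.01 times its error, whereas on the other 15 arrays this probe read 0.372 to 0.862 and the highest ratio of any probe was 2.41. None of its 480 spots was well above background.

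Of 21 further miRNAs named for the same region but outside the list, 3 were detected, miRNA-1906 and miRNA-3072-5p on 16 arrays and miRNA-1188-3p on 5. The first 2 are shown because they were detected on every array.
miRNA-1906: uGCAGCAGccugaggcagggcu
miRNA-3072-5p: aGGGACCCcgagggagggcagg
miRNA-3072-5p lies within Mirg at chr12:109747893-109747914, and its scaled signal differed neither with strain nor with age past the test. Its unscaled mean signal was 10.7 in SAMR1 and 16.9 in SAMP1, and 11.8 at 10 weeks and 15.8 at 50 weeks. miRNA-1906 has a copy within Meg3 at chr12:109544588-109544609 and an identical mature sequence at chrX:88759485-88759506 on the minus strand, so the signal cannot be assigned to the cluster. Its scaled signal was lower in SAMP1, with a difference of -0.15 (SE 0.04, limma adjusted p = 0.0124), and at 50 weeks, with a difference of -0.14 (SE 0.04, adjusted p = 0.0324), both with overlap between the 8 and 8 mice. Both directions rest on scaling, since the unscaled mean signal was 16.5 in SAMR1 and 21.9 in SAMP1, and 18.7 at 10 weeks and 19.8 at 50 weeks. Of 10 other imprinted miRNAs outside chromosome 12 that were listed beside them, 1 was detected on all arrays, 4 on at least 1 and 6 on none.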

How the data were processed

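Kidney cortex RNA of 16 mice was measured on 1-colour Agilent mouse miRNA arrays. The authors deposited the scanner output of Agilent Feature Extraction 12.0.3.1, as intensity values that are background-subtracted and not scaled between arrays, and a table of processed log2 values, scaled per array and centred on SAMR1-10wk by the authors. A miRNA not detected is deposited at 0.1. From the intensity, log2 of the total gene signal over the array's 90th percentile was computed and raised to the array's lowest detected signal. All 381 miRNAs that every array of some group detected were fitted with limma 3.58.1 in R 4.3.3 (1 mean per group, empirical Bayes) with Benjamini-Hochberg adjustment over all of them. A miRNA was called at an adjusted p under 0.05. Single members also had exact permutation tests. Python 3.11.15 with pandas 2.3.3, numpy 2.4.6 and scipy 1.17.1 read the files, and matplotlib 3.10.9 drew figures. The fit was tested on simulated data. No spot was saturated and no 2 arrays were identical.

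The members and the lists of other miRNAs were chosen with earlier results of these data known. Members that passed the detection filter were named with all values where called or lowest in p in a comparison, members detected on fewer arrays by their number of arrays, and the rest by counts. miRNA names were matched to RefSeq, where 88 of 92 members had a mature sequence and 92 a position in GRCm38.p6. The number of arrays limits precision, and p-values measure the spread between the mice as labelled. The alternatives were other signals, scalings, floors, filters and tests, the authors' values, slides taken singly, leaving out single arrays, and blocking on the animal number. 1 probe of miRNA-487b-3p on every array was added after the data had been seen.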

Additional observations from a re-analysis of the deposited data

Results flagged for a closer look

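Outside the list, miRNA-1906 was detected on 16 of 16 arrays, and miRNA-3072-5p likewise on 16. The miRNA-1906 signal cannot be assigned to the region, because an identical mature sequence lies on chromosome X. No tested member had a mouse past Dixon's critical value at the 95% level for 4 samples. The nearest was miRNA-487b-3p in SAMP1-10wk mice, where the gap of replicate 6 to the next mouse was 0.826 of the group's range, just under that value.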

How the results depend on the processing

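Without scaling the sign turned for the strain difference of miRNA-370-3p (0.12), miRNA-494-3p (0.19) and miRNA-487b-3p (0.33, which was called), for the strain difference at 50 weeks of miRNA-370-3p (0.30) and miRNA-487b-3p (0.34), for the interaction of miRNA-487b-3p (0.0045), and for the median of the 3 members with strain (0.19) and age (0.032). The strain difference of miRNA-487b-3p was also above 0 on the 10-week slide alone (0.07), and the age difference of miRNA-494-3p, close to 0, was above it without scaling (0.16), with the 90th (0.014) or 75th percentile (0.0061) over detected miRNAs, normexp (0.03), the block (0.21) and in 5 fits with 1 array left out (0.0045 to 0.070). That of miRNA-370-3p, which was -0.13, was above 0 without scaling (0.032) and with the block (0.023). The number of members called for strain, 2 of 3, was 0 with a fold over 2, the 90th percentile over detected miRNAs, quantile normalization, the animal number as a replicate block or the 10-week slide alone. It was 3 with the processed signal or 1 probe of miRNA-487b-3p, and 2 with normexp, where miRNA-494-3p was lost (adjusted p = 0.310) and miRNA-487b-3p called. Without scaling it was 1, miRNA-487b-3p, higher in SAMP1, and on the 50-week slide alone 1, miRNA-487b-3p, lower in SAMP1. It was 1, miRNA-370-3p, with the 75th percentile, a common floor, signals as deposited, the authors' values or the adjusted analysis of variance. The number for age, 0, was 1 with the processed signal, the authors' values, detection on all 16 arrays, the unadjusted analysis of variance or 1 probe of miRNA-487b-3p. The number for the interaction, 0, was 1 in the unadjusted analysis of variance. The number over the 4 groups, 1, was 0 with a fold over 2, the 90th percentile over detected miRNAs, quantile normalization, no scaling or the replicate block, and 2 with the processed signal, normexp, detection on all 16 arrays or the unadjusted analysis of variance. With no filter 91 of 92 members were called for strain and 91 over the 4 groups, by construction, since undetected members all sit at the floor of their array. With each array left out, the number called was 0 to 2 for strain, 0 to 1 for age, 0 for the interaction and 0 to 3 over the 4 groups. For strain it was 0 without SAMR1-10wk replicate 5 or 7, SAMR1-50wk replicate 9 or SAMP1-10wk replicate 5, and 1 without SAMR1-10wk replicate 4, SAMR1-50wk replicate 6 or 12, SAMP1-10wk replicate 3 or 4, or SAMP1-50wk replicate 1 or 2. For age it was 1 without SAMP1-10wk replicate 4 or SAMP1-50wk replicate 1. Over the 4 groups it was 0 without SAMP1-50wk replicate 2, 2 without SAMR1-10wk replicate 1 or SAMP1-50wk replicate 11, and 3 without SAMR1-50wk replicate 2. miRNA-487b-3p in SAMP1 with age remained called in all 16 of these fits, but not with the block (adjusted p = 0.241), which at 50 weeks left 0 members called for strain. Some animal numbers mark a single array, which then adds nothing to the block fit. The standard error of miRNA-487b-3p with age was 0.11 in the main fit and 0.25 with the block. Calls lost with the block therefore cannot be read as a dependence on animal number. The cause of the other shifts was not tested. Same-numbered arrays are of mice of different strain or age, and the numbers are not known to pair them. Such arrays deviated with correlations between -0.43 and 0.21, which were not compared with those of other pairs. Signals of miRNA-370-3p and miRNA-487b-3p near the lowest detected one limit what the arrays could show.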
